A study of Danio rerio with 12 samples.

Results

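The stage change of lead (Pb)-exposed zebrafish (Danio rerio) between 72 and 120 hours postfertilization (hpf) was measured as 3 microarrays of Pb-treated larvae at 120 hpf set against 3 microarrays of Pb-treated embryos at 72 hpf, 6 of the 12 arrays of the series. The other 6 arrays hold the controls, 3 at 120 hpf and 3 at 72 hpf, and give the same stage change without Pb. All animals were of the wild-type AB strain, and each array measured RNA of 1 pool of whole animals. They were kept in 100 ppb Pb, given as Pb acetate (Pb_120hpf and Pb_72hpf), or in 0 ppb (Control_120hpf and Control_72hpf), beginning shortly after fertilization and lasting until collection. The comparison asks which transcripts differed between the stages in exposed animals, and how large those differences were beside those of controls.

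By 72 hpf the zebrafish embryo has its body plan and is hatching, while the gut, liver, pancreas, and kidney are still maturing and food is drawn from the yolk. In the following days the larva begins to swim freely, the exocrine pancreas fills with digestive enzymes, the intestine and the kidney tubule take up transport work, and cell division slows in many tissues. Pb is a metal best known for its effects on the developing nervous system.

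The arrays were read as log2 intensity of 37157 targets (transcript sequences with up to 12 probes each), of which 2663, 7.17%, could be given a gene symbol. Of 33 tissue markers, 8 had a named target, and they stood for 4 of 8 tissues (muscle, lens, blood, and neurons). The mean signal of 7 of these markers lay between the 72.8 and 99.9 percentile of all targets in each group, while the globin hbbe3 lay between the 1.29 and 6.95 percentile. Pb_72hpf replicate 1 and Pb_120hpf replicate 2 stood apart from the other Pb arrays in the rise of log2 signal from the first to the last probe of a target (0.61 and 0.47, against 0.04 to 0.27 on the other Pb arrays and 0.03 to 0.40 on control arrays). These 2 arrays of different stages correlated at Pearson r = 0.953, while Pb_120hpf replicate 2 reached 0.945 with the other Pb arrays of its stage. Other pairs of Pb arrays across stages lay between 0.901 and 0.960. The mean r of an array with the others of its group was 0.914, 0.946, and 0.931 for Pb_72hpf replicates 1 to 3, against 0.966 to 0.984 for control arrays. The median SD of a target over the 3 arrays of a group was 0.30 in Pb_120hpf, 0.38 in Pb_72hpf, 0.22 in Control_120hpf, and 0.21 in Control_72hpf. Because whole animals were pooled, a change in the number of cells of a type and a change in RNA per cell cannot be told apart.

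In Pb-exposed animals 1101 of 37157 targets (2.96%) differed between 120 and 72 hpf at an adjusted p under 0.05 (limma, Benjamini-Hochberg). Of these, 830 were higher (2.23% of all targets) and 271 were lower (0.729%) at 120 hpf. The called rises were the larger changes, with a median log2 fold change of 1.502 over the 830 rises and of -1.20 over the 271 falls, and 75 rises and 6 falls were 8-fold or more. Among named targets 104 of 2663 were called (3.91%), 78 higher (2.93%) and 26 lower (0.976%). On every called target the 3 Pb arrays of 120 hpf did not overlap the 3 of 72 hpf, which was also true of 15% of all targets and 19.2% of named targets (30.7% and 36.4% in controls). Leaving out Pb_120hpf replicate 1 brought the count to 580, the only array whose removal moved it by more than 1.5 times. Without Pb_72hpf replicate 1 and Pb_120hpf replicate 2 together, 1311 targets were called, and 842 of the 1101 kept their call. All 1101 kept their direction, which was fixed in advance because their arrays did not overlap between the stages.

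Of the 75 rises of 8-fold or more with Pb 5 had a gene symbol, and the largest of these was that of a digestive enzyme. The pancreatic amylase gene amy2al2, whose product cleaves starch, measured 13.42, 13.44, and 13.37 log2 units in Pb larvae at 120 hpf, against 8.65, 9.60, and 8.86 in Pb embryos at 72 hpf. The 3 later pools lay close together and far above the earlier ones, a log2 fold change of 4.37 ± 0.51 (SE, limma adjusted p = 0.000398), or 20.7-fold. In controls the rise of amy2al2 was 5.29 ± 0.51, and the difference between both stage changes was -0.91 (95% interval -2.48 to 0.65). Chymotrypsinogen ctrb.3, a precursor of a pancreatic protease, measured 14.07, 14.13, and 13.71 in Pb larvae at 120 hpf, against 10.77, 11.17, and 9.84 in Pb embryos at 72 hpf (3.38 ± 0.45, adjusted p = 0.000991), and its control rise was 3.92 ± 0.45. All 4 measured members of the list of digestive enzymes were called higher with Pb and all 4 in controls, with a median log2 fold change of 2.76 with Pb and 3.02 in controls, beside -0.05 and -0.04 over all targets. The other two were xpnpep2, a membrane-bound aminopeptidase (2.15 ± 0.32, adjusted p = 0.00262), and prss59.1, a trypsin-like protease (1.35 ± 0.33, adjusted p = 0.0487). The call of prss59.1 was lost in 14 of 25 alternatives, and xpnpep2 changed by 0.03 over the probes within 500 nt of its last probe. Outside that list, anpepb.1, an aminopeptidase N of the kind found on the intestinal brush border, rose by 2.91 ± 0.23 with Pb (adjusted p = 3.22e-05) and by 3.31 ± 0.23 in controls.

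**Figure D1:**
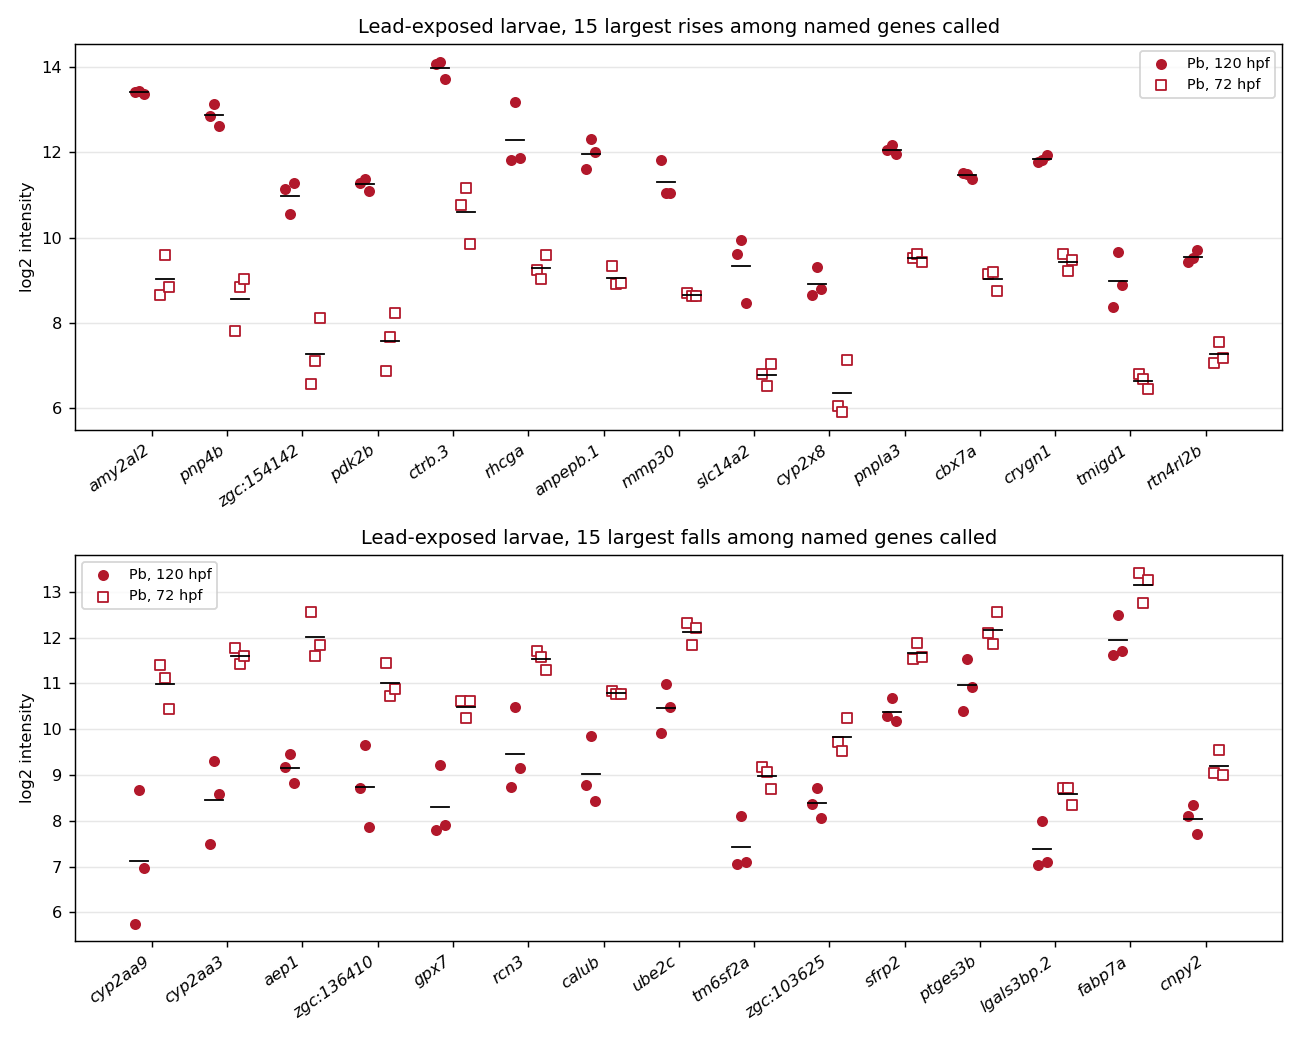
Log2 intensity (vertical axes) of the 15 named genes with the largest called rises (upper panel) and the 15 with the largest called falls (lower panel) in Pb-exposed animals. Filled circles are the 3 pools at 120 hpf, open squares the 3 pools at 72 hpf, and black lines the group means; for each of the 30 genes the circles and squares do not overlap.

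The next rises among named genes were of mixed kinds. The purine nucleoside phosphorylase pnp4b rose by 4.31 ± 0.59 with Pb (adjusted p = 0.00132) and by 4.72 ± 0.59 in controls. The pyruvate dehydrogenase kinase pdk2b, which restrains entry of pyruvate into the citric acid cycle, measured 11.29, 11.37, and 11.10 in Pb larvae at 120 hpf, against 6.88, 7.66, and 8.23 in Pb embryos at 72 hpf. Its rise of 3.66 ± 0.32 (adjusted p = 5.01e-05) stood beside 3.37 ± 0.32 in controls, and it was one of the few of the 15 largest rises that were larger with Pb. The unannotated gene zgc:154142 rose by 3.72 ± 0.38, the matrix metalloproteinase mmp30 by 2.65 ± 0.36, the lipid-droplet hydrolase pnpla3 by 2.55 ± 0.23, and the immunoglobulin-domain membrane protein tmigd1 by 2.33 ± 0.29 (limma adjusted p of at most 0.00113). The Polycomb protein cbx7a rose by 2.42 ± 0.21 and the Nogo receptor relative rtn4rl2b by 2.29 ± 0.22. Of 24 lens proteins, 1 was called, the crystallin crygn1, at 11.79, 11.82, and 11.93 in Pb larvae at 120 hpf and 9.62, 9.21, and 9.49 in Pb embryos at 72 hpf (2.41 ± 0.20, adjusted p = 4.29e-05). The median of the lens list was 0.11 with Pb and 0.23 in controls, and 1 call of 24 is near the 3.91% called over all named targets.

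Several transport genes were called higher, beside 2.93% of all named targets called higher and 0.976% called lower with Pb. Of 64 solute carriers 7 were called higher with Pb and 0 lower (6 and 0 in controls), and the list's median was 0.19 with Pb and 0.02 in controls. Without the 2 arrays that stood apart its median with Pb was 0.09 and 5 were called higher. The urea transporter slc14a2 measured 9.62, 9.95, and 8.47 in Pb larvae at 120 hpf, against 6.80, 6.52, and 7.03 in Pb embryos at 72 hpf (2.56 ± 0.32, adjusted p = 0.000681). Replicate 3 was the lowest of the later pools and still above all earlier ones. The multidrug and toxin extrusion transporter slc47a2.1 rose by 2.18 ± 0.27, the organic cation and carnitine transporter slc22a4 by 2.06 ± 0.28, and the mitochondrial carrier slc25a43 by 1.89 ± 0.27 (limma adjusted p of at most 0.00176). Among 15 genes of kidney tubule and ion transport 3 were called higher and 0 lower, with a median of 0.59 with Pb and 0.66 in controls, and without those 2 arrays 1 was called and the median with Pb was 0.33. Their largest rise was that of the ammonia transporter rhcga, at 11.82, 13.18, and 11.86 in Pb larvae at 120 hpf and 9.24, 9.04, and 9.59 in Pb embryos at 72 hpf (3.00 ± 0.66, adjusted p = 0.0283). Replicate 2 was the highest 120 hpf pool of rhcga both with Pb and in controls, where it measured 12.99 beside 11.74 and 12.11. The call of rhcga was lost in 7 of 25 alternatives, among them without Pb_120hpf replicate 2.

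Cytochrome P450 genes were called in both directions, beside 2.93% of all named targets called higher and 0.976% called lower with Pb. In the list of 41 genes of xenobiotic metabolism 6 were called higher and 2 lower with Pb (9 and 2 in controls), with a median of 0.28 with Pb and 0.38 in controls. Both falls belonged to the cyp2aa subfamily. cyp2aa9 measured 5.75, 8.67, and 6.96 in Pb larvae at 120 hpf, against 11.40, 11.13, and 10.45 in Pb embryos at 72 hpf, the largest fall of any named gene (-3.86 ± 0.74, adjusted p = 0.0126). The earlier pools lay closer together than the later ones, and control larvae at 120 hpf spread likewise (5.84, 8.96, and 7.11). cyp2aa3 fell by 3.14 ± 0.46 log2 units (adjusted p = 0.00214). cyp2aa8 (-2.82 ± 0.82) and cyp2aa4 (-2.19 ± 0.61) had adjusted p of 0.0971 and 0.081, and over 6 cyp2aa members the median was -2.50 with Pb and -2.39 in controls. Of 7 other cyp2 genes 2 were called higher, and cyp2x8 measured 8.65, 9.31, and 8.80 in Pb larvae at 120 hpf, against 6.05, 5.90, and 7.14 in Pb embryos at 72 hpf (2.56 ± 0.31, adjusted p = 0.000494). The cyp2aa genes, like the amylase and protease genes, belong to families of similar copies, and how far their probes also bind a sister gene was not tested.

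The other named falls were of mixed kinds. rcn3 and calub, calcium-binding proteins of the endoplasmic reticulum, fell by 2.07 ± 0.40 and 1.77 ± 0.38 log2 units with Pb (adjusted p = 0.0129 and 0.0268), and gpx7, a peroxidase of the same compartment, by 2.18 ± 0.42 (adjusted p = 0.0139). gpx7 measured 7.79, 9.22, and 7.90 in Pb larvae at 120 hpf, against 10.61, 10.23, and 10.62 in Pb embryos at 72 hpf. Replicate 2 was again the later pool nearest the earlier ones. aep1 fell by 2.86 ± 0.27 with Pb (adjusted p = 7.9e-05) and changed by -2.71 ± 0.27 in controls, and the secreted Wnt antagonist sfrp2 by 1.29 ± 0.23 with Pb (adjusted p = 0.0078). The 15 largest falls also held zgc:136410 (-2.27), tm6sf2a (-1.55), zgc:103625 (-1.45), the co-chaperone ptges3b (-1.21), lgals3bp.2 (-1.21), and cnpy2 (-1.15). The calls of tm6sf2a, lgals3bp.2, ptges3b, and cnpy2 were lost in 11 to 14 of 24 or 25 alternatives, and that of calub in 6 of 25. Grouping rcn3, calub, and gpx7 by compartment was done after their values were seen.

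All 15 genes of cell cycle and DNA replication had a log2 fold change below 0 with Pb, and 1 of them passed the test (0 higher and 2 lower in controls). Their median was -0.60 with Pb and -0.51 in controls, beside -0.05 and -0.04 over all targets. The called gene, ube2c, encodes the ubiquitin-conjugating enzyme that marks mitotic cyclins for destruction, and it measured 9.92, 10.99, and 10.49 in Pb larvae at 120 hpf, against 12.32, 11.84, and 12.22 in Pb embryos at 72 hpf. That was a change of -1.66 ± 0.34 with Pb (adjusted p = 0.0207) and of -1.27 ± 0.34 in controls (adjusted p = 0.0562). The call of ube2c with Pb was lost in 5 of 25 alternatives. Cyclin ccna2 (-1.13 ± 0.29, adjusted p = 0.0559), the transcription factor foxm1 (-0.97 ± 0.27), and the replication factors mcm10 (-0.86 ± 0.26) and mcm5 (-0.82 ± 0.29) did not pass with Pb. Of 80 developmental transcription factors 0 were called higher and 2 lower with Pb, foxf2a (-1.13 ± 0.20, adjusted p = 0.00836) and nkx3.3 (-0.97 ± 0.23, adjusted p = 0.0383). Over all named targets 3.91% were called with Pb, 2.93% higher and 0.976% lower. The median of those 80 was -0.21 with Pb and -0.26 in controls, and the call of nkx3.3 was lost in 15 of 24 alternatives.

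In the list of cholesterol and fatty acid metabolism 0 of 15 genes were called higher and 2 lower with Pb (1 and 0 in controls), and the median was -0.51 with Pb and -0.60 in controls. Over all named targets 2.93% were called higher and 0.976% lower with Pb. Of the 9 enzymes of cholesterol synthesis in the named targets 8 lay below 0 with Pb. The median of the 9 was -1.05 with Pb and -0.86 in controls, beside -0.05 and -0.04 over all targets. mvda of the mevalonate pathway measured 7.83, 9.49, and 8.13 in Pb larvae at 120 hpf, against 10.45, 9.97, and 9.91 in Pb embryos at 72 hpf (-1.63 ± 0.43, adjusted p = 0.0676). The 3 later pools were below the 3 earlier ones, replicate 2 least so, and mvda passed the test in 5 of 25 alternatives. lss, which closes the sterol ring, changed by -1.36 ± 0.41 and hsd17b7 by -1.11 ± 0.37 (adjusted p = 0.108 and 0.148). The LDL receptor gene ldlra, also of this list, changed the other way by 1.07 ± 0.27 (adjusted p = 0.0568). The called members were sc5d, a later enzyme of the pathway (-0.92 ± 0.21, adjusted p = 0.0331), and the brain fatty acid-binding protein fabp7a. fabp7a measured 11.62, 12.50, and 11.71 in Pb larvae at 120 hpf, against 13.42, 12.76, and 13.27 in Pb embryos at 72 hpf (-1.21 ± 0.28, adjusted p = 0.0346), from 3 probes, and lost its call in 12 of 25 alternatives.

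**Figure D2:**
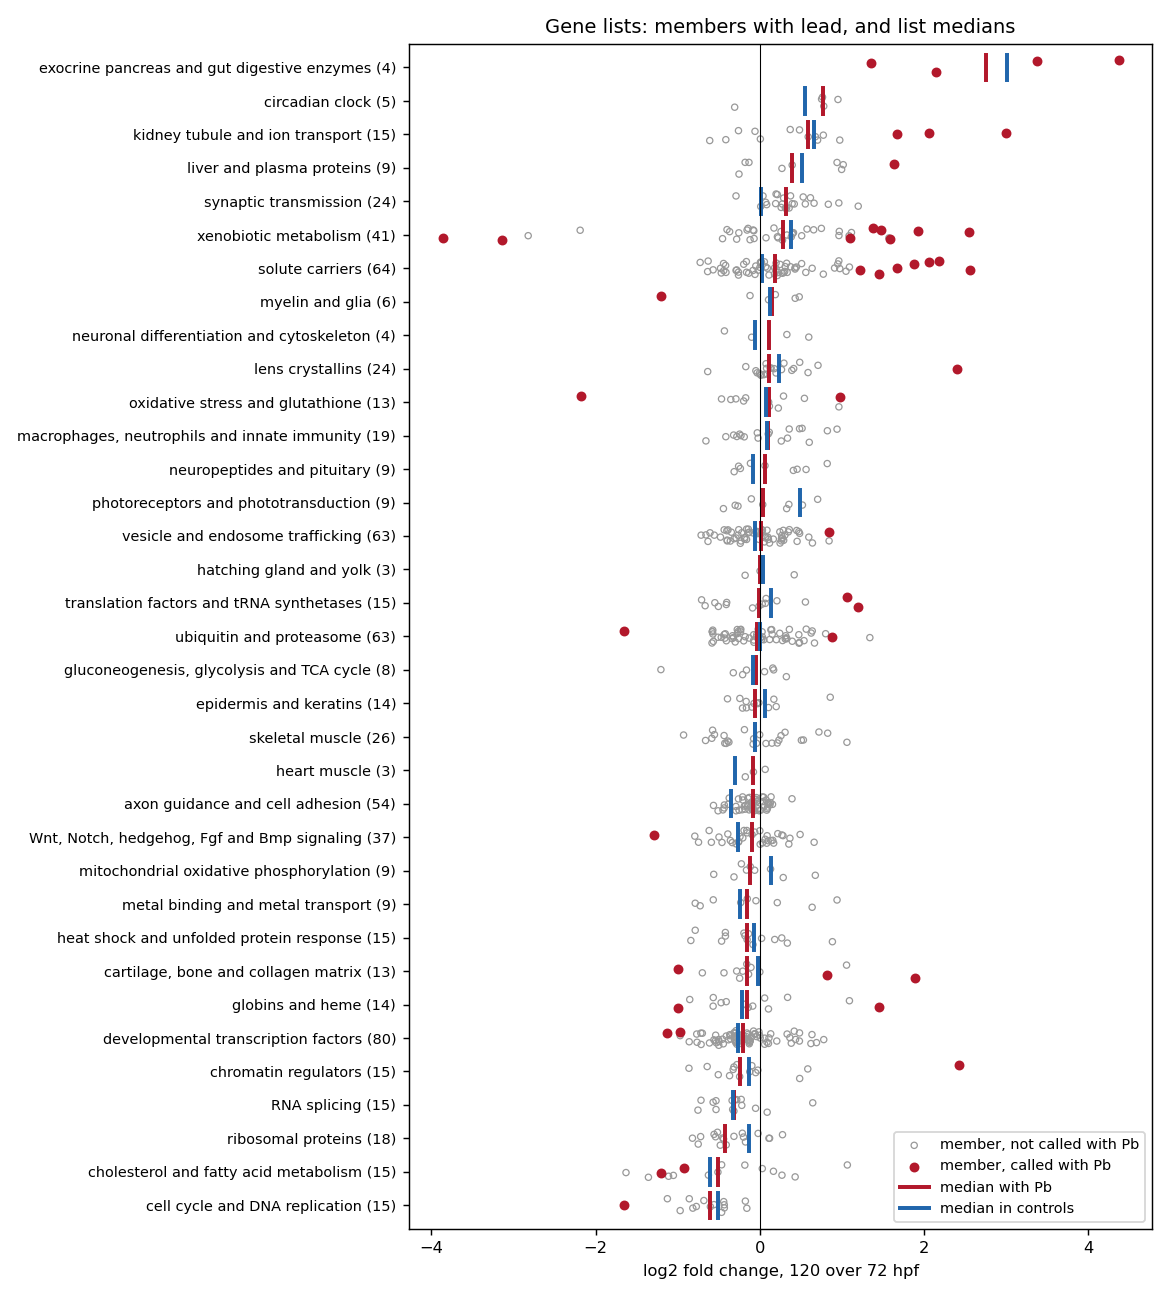
Log2 fold change of 120 over 72 hpf (horizontal axis) for the members of each gene list with at least 3 measured targets (rows, number of targets in brackets). Points are members with Pb, filled where called, and bars are the list medians with Pb (red) and in controls (blue); the digestive enzymes lie highest at a median of 2.76 with Pb and cell cycle genes lowest at -0.60.

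The lists of liver and of skeletal matrix genes were small, and 3.91% of all named targets were called with Pb. The plasma carrier of vitamin D, gc, rose by 1.64 ± 0.30 with Pb (adjusted p = 0.00947), the 1 call among 9 liver genes. In the same list the hepcidin gene hamp (0.94 ± 0.62), the bile acid enzyme cyp7a1 (1.00 ± 0.33), and the complement gene c3a.2 (1.02 ± 0.37) did not pass. Of the 9 liver genes 6 lay above 0 and 3 below with Pb, with a median of 0.40 with Pb and 0.52 in controls. The mineral-binding matrix protein spp1 rose by 1.89 ± 0.32 (adjusted p = 0.00572) and the hyaluronan link protein hapln2 by 0.82 ± 0.19 (adjusted p = 0.0372) among 13 targets of cartilage, bone, and collagen matrix, where 2 were called higher and 1 lower. Of those 13 targets 4 lay above 0 and 9 below with Pb, with a median of -0.16 with Pb and -0.02 in controls. The collagen-modifying enzyme plod2 had 2 targets, of which one changed by -0.998 ± 0.188 (adjusted p = 0.0118) and the other by -0.11 ± 0.25 (adjusted p = 0.911). The call of hapln2 was lost in 16 of 23 alternatives, and its mean signal was among the lowest 25% of targets.

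Blood genes included 1 call each way, beside 2.93% of all named targets called higher and 0.976% called lower with Pb. All 5 globin chains lay below 0 with Pb, with a median of -0.47 with Pb and -0.48 in controls, and hbae3, an embryonic alpha globin, was called (13.59, 14.01, and 13.44 in Pb larvae at 120 hpf, against 14.87, 14.71, and 14.43 in Pb embryos at 72 hpf, -0.99 ± 0.23, adjusted p = 0.0361). The groups did not overlap, and the call was lost in 12 of 25 alternatives. The mitochondrial glycine carrier slc25a38a, which feeds heme synthesis, rose by 1.45 ± 0.27 (adjusted p = 0.0111). A pair of translation elongation factor genes of close sequence rose, eef1a1l2 by 1.197 ± 0.26 and eef1a1b by 1.06 ± 0.20 (limma adjusted p = 0.0272 and 0.0107). The call of eef1a1l2 was lost in 9 of 25 alternatives, and the value of eef1a1b over the probes within 500 nt of its last probe was -0.59. In contrast, 13 of 13 mitochondrial ribosomal proteins were below 0 with Pb, with 0 called and a median of -0.48 with Pb and -0.29 in controls, while 5 cytosolic ribosomal proteins had a median of 0.11 with Pb. In the whole list of 18 ribosomal proteins 15 were below 0 and 3 above with Pb, with 0 called and a median of -0.42 with Pb and -0.13 in controls. All 6 proteasome subunits (median -0.57 with Pb and -0.35 in controls) and 13 of 15 splicing genes (median -0.31 with Pb and -0.33 in controls) were also below 0 with Pb, with 0 called with Pb. In controls 1 proteasome subunit was called lower. The list of 63 ubiquitin and proteasome genes was mixed, with 29 above 0 and 34 below with Pb. Its median was -0.04 with Pb, and 1 was called higher and 1 lower with Pb. The median over all targets was itself below 0 (-0.05 with Pb and -0.04 in controls), and members of a list are not independent of each other. Of 26 skeletal muscle genes 0 were called with Pb, and 2 were called higher in controls. Without the 2 arrays that stood apart 2 muscle genes were called higher and 1 lower with Pb.

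The lists of synaptic transmission and of axon guidance had 0 calls with Pb and 0 in controls, and 1 synaptic gene was called with Pb without the 2 arrays that stood apart. Over all named targets 3.91% were called with Pb and 5.71% in controls. Of 24 genes of synaptic transmission 23 had a log2 fold change above 0 with Pb. The median of the 24 was 0.32 with Pb and 0.02 in controls, beside -0.05 and -0.04 over all targets. The glutamate transporter slc17a6b measured 11.66, 10.60, and 10.91 in Pb larvae at 120 hpf, against 7.93, 11.61, and 10.74 in Pb embryos at 72 hpf. Both stages overlapped, and its log2 fold change of 0.96 ± 0.70 (adjusted p = 0.605) became -0.12 without Pb_72hpf replicate 1. The kinase camk2a changed by 1.201 ± 0.35 with Pb (adjusted p = 0.0947) and 1.16 ± 0.35 in controls, the GABA receptor subunits gabra4 and gabrr2a by 0.84 ± 0.43 and 0.66 ± 0.34 with Pb, and the scaffold gene dlg2 by 0.62 ± 0.36. Taken by array, the median deviation of the 24 genes from their mean over the 12 arrays was 0.48, -0.37, and 0.04 in Pb larvae at 120 hpf and -0.84, 0.15, and -0.40 in Pb embryos at 72 hpf. The lowest array of each stage was the one with the steep rise of signal along the target, and the part of that rise in these values was not tested. Without those 2 arrays the list's median was 0.26. Of 54 genes of axon guidance and cell adhesion 37 were below 0 with Pb, with a median of -0.08 with Pb and -0.35 in controls, and the same 2 arrays read lowest there (-0.74 in Pb_120hpf replicate 2 and -0.56 in Pb_72hpf replicate 1).

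**Figure D3:**
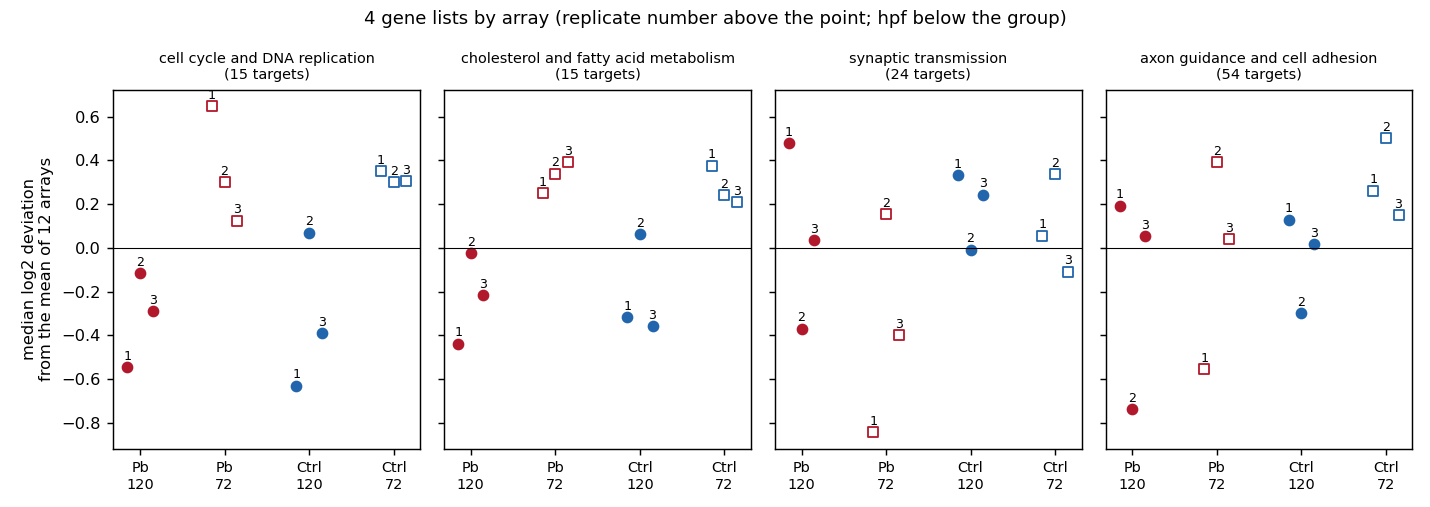
Median log2 deviation of a list's genes from their mean over the 12 arrays (vertical axis) for 4 gene lists, by group (horizontal axis), with the replicate number above each point. Pb_120hpf replicate 2 and Pb_72hpf replicate 1 are the lowest arrays of their stages in the synaptic and axon guidance lists, while cell cycle genes lie lower in each Pb pool at 120 hpf than in each Pb pool at 72 hpf.

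The 120 hpf pools differed among themselves in the size of the called falls. Pb_120hpf replicate 2 is one of the 2 arrays that stood apart, and it was among the arrays by which the falls were called. Over the 271 falls, replicate 2 was the 120 hpf pool nearest the 72 hpf mean on 169 (62.4%) with Pb, against 21 for replicate 1 and 81 for replicate 3. On the same 271 targets in controls, whose stage change did not choose them although their arrays shared the fit, replicate 2 was nearest on 196 (72.3%), against 23 and 52. The median change of the falls was -0.95 in Pb_120hpf replicate 2, beside -1.43 and -1.18 in replicates 1 and 3, and -0.89 in Control_120hpf replicate 2, beside -1.28 and -1.14. Over the 830 rises replicate 2 was nearest on 187 (22.5%) with Pb and on 374 (45.1%) in controls. The deposited values of a Pb array and of the control array with its number and stage had been normalized together, and what the pools of 1 number shared beyond that was not stated.

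More targets were called between the stages in controls. There 1765 of 37157 targets were called (4.75%), 1341 higher (3.61%) and 424 lower (1.14%), and 961 targets were called in both, which is 87.3% of the Pb calls and 54.4% of the control calls. All 961 had the same direction. Fitted on its own 6 arrays, each with its own spread, the Pb stage change gave 364 calls and the control stage change 3542, and without Control_72hpf replicate 1 in the shared fit controls gave 747 calls and Pb 944. The 140 targets called with Pb only had the same direction in controls, with a median size of 1.13 log2 units with Pb and 0.78 in controls, and the 804 called in controls only had the same direction with Pb, with 0.79 with Pb and 1.09 in controls. Of the named targets 152 were called in controls (5.71%), 119 higher (4.47%) and 33 lower (1.24%), and 90 were called in both, 14 with Pb only, and 62 in controls only. The stage changes correlated across the 37157 targets at Pearson r = 0.851 and Spearman rho = 0.731, where the points share the 4 groups' normalization and targets are not independent replicates.

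**Figure D4:**
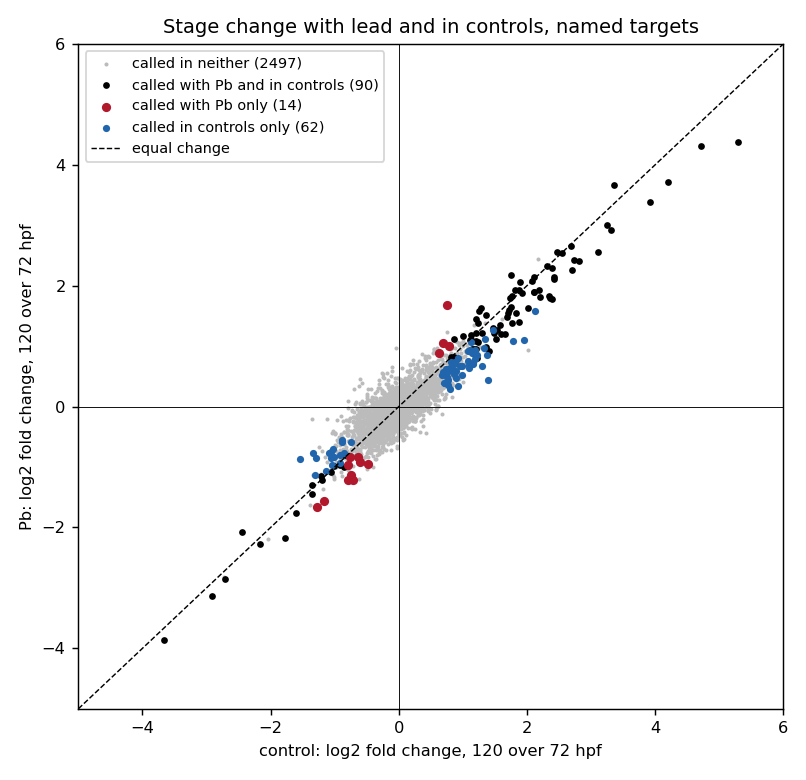
Log2 fold change of 120 over 72 hpf with Pb (vertical axis) against that in controls (horizontal axis) for the 2663 named targets, with colors for the 90 called in both, the 14 called with Pb only, and the 62 called in controls only. The dashed line marks equal change; most targets with large control rises lie below it, and no target called in either lies in a quadrant of opposite direction.

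In size, the Pb stage change was below that of controls over the targets called in controls, a description with no test. The median ratio of the Pb to the control log2 fold change was 0.838 over those 1765 targets (quartiles 0.721 and 0.948), and 83.4% of them had a ratio below 1. Choosing targets by the control change overstates the control change, and over the 1101 targets called with Pb, which has the opposite bias, the median ratio was 0.946 and 61.7% were below 1. There the rises and falls parted, with a median ratio of 0.907 over the 830 rises and 1.06 over the 271 falls, beside 0.831 over the 1341 control rises and 0.870 over the 424 control falls. Recomputed from single Pb arrays of one stage with the mean of the other, the ratio over the 1765 targets was 0.857, 0.880, and 0.783 for the Pb pools at 120 hpf and 0.768, 0.837, and 0.885 for those at 72 hpf. Each of the 6 lay below 1, but all share the control changes that chose the targets, so they are not independent measures. Over all targets the root mean square log2 fold change was 0.499 with Pb and 0.552 in controls, and that of their difference was 0.291.

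The difference between both stage changes passed the threshold at 0 of 37157 targets (0.0%) in limma, with a smallest adjusted p of 0.999988. At an unadjusted p under 0.05 there were 75 targets, 25 with a higher and 50 with a lower value with Pb, fewer than the 5390 of the Pb stage change and the 6182 of the control stage change. That number moved with single arrays, to 614 without Pb_72hpf replicate 2 and 659 without Pb_120hpf replicate 2, and ranged between 6 and 669 over the alternatives. The methods' t-test after Benjamini-Hochberg adjustment also gave 0. A call in one set of animals and not in the other was therefore not shown to be a difference at any target, which limits the statements on the genes that follow. Equal stage changes were not shown either. The 75 targets are below the share of 0.05 that a calibrated test would pass on average without any difference. The main fit did not model the pairs of arrays normalized together, and with those pairs as a random block the number was 334. Why it was low was not tested, and the intervals of the difference come from the main fit.

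Among named genes the smallest unadjusted p of the difference belonged to the zinc finger gene znf800b, which changed by -0.31 ± 0.18 with Pb and 0.38 ± 0.18 in controls, a difference of -0.70 (95% interval -1.26 to -0.13). znf800b is a dim target, with a mean signal among the lowest 25% of targets. fbxo7, a subunit of a ubiquitin ligase, changed by -0.13 with Pb and 0.67 in controls (difference -0.80, interval -1.46 to -0.14), and tgds by -0.36 with Pb and 0.26 in controls (difference -0.62, interval -1.24 to just below 0). They were the 3 of 2663 named targets with an unadjusted limma p under 0.05 for the difference, so intervals without 0 follow from that choice. The intervals are not adjusted for the number of targets. The organic anion transporter relative slc22a6l measured 11.05, 12.10, and 11.46 in Pb larvae at 120 hpf and 9.70, 10.26, and 9.63 in Pb embryos at 72 hpf. Control larvae at 120 hpf measured 10.41, 11.33, and 10.27, and control embryos at 72 hpf 9.59, 10.17, and 10.02. Its rise was 1.67 ± 0.33 with Pb (limma adjusted p = 0.0161) and 0.75 ± 0.33 in controls (adjusted p = 0.279), with a difference of 0.93 (interval -0.09 to 1.95). Replicate 2 was the highest 120 hpf pool in both.

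The laminin chain lama1, a basement membrane protein, measured 7.68, 6.31, and 7.47 in Pb larvae at 120 hpf, against 6.58, 7.58, and 7.92 in Pb embryos at 72 hpf, and the stages overlapped (-0.20 ± 0.39, adjusted p = 0.881). Control larvae at 120 hpf measured 6.92, 7.00, and 6.84, below the 7.88, 8.32, and 8.65 of control embryos at 72 hpf (-1.36 ± 0.39, adjusted p = 0.0708). The difference was 1.15 (interval -0.03 to 2.34), and the lowest Pb pool of each stage was again one of the 2 arrays that stood apart. Its last probe lies 9223 nt into the target, against a median of 901 nt over all targets. The related chain lamb1a changed by -0.56 ± 0.21 with Pb and -0.78 ± 0.21 in controls. Smaller rises with Pb than in controls were measured for si:dkey-239i20.2 (1.80 ± 0.19 and 2.36 ± 0.19), the NF-kappa-B inhibitor nfkbie (0.53 ± 0.16 and 0.99 ± 0.16), and the LIM protein csrp1b (0.35 ± 0.20 and 0.92 ± 0.20), each with an interval of the difference that included 0.

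Genes called in controls and not with Pb had the same direction with Pb. The heme oxygenase hmox1b, which degrades heme, changed by 1.11 ± 0.44 with Pb (adjusted p = 0.25) and 1.95 ± 0.44 in controls (adjusted p = 0.0253). The cytochrome P450 genes cyp4v2a (1.57 with Pb and 2.12 in controls) and cyp2x9 (1.09 with Pb and 1.79 in controls) and the protease inhibitor gene serpinb1l4 (0.45 with Pb and 1.39 in controls) were of the same kind. The de novo DNA methyltransferase dnmt3aa measured 9.16, 7.59, and 8.18 in Pb larvae at 120 hpf, against 9.09, 9.30, and 9.13 in Pb embryos at 72 hpf. Pb_120hpf replicate 1 read as high as the earlier pools, and the change was -0.86 ± 0.32 with Pb (adjusted p = 0.209), against -1.54 ± 0.32 in controls (adjusted p = 0.0156), with a difference of 0.68 (interval -0.30 to 1.66). tbl1x (-0.77 with Pb and -1.34 in controls) and nfe2l3 (-0.85 with Pb and -1.30 in controls) were called lower in controls.

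The 14 named targets called with Pb only consisted of 10 falls and 4 rises. Besides ube2c, tm6sf2a, lgals3bp.2, fabp7a, foxf2a, nkx3.3, and sc5d, the falls were those of apoda.1, an apolipoprotein D (-0.95 ± 0.22 with Pb and -0.48 in controls), angptl6, and dr1. The rises besides slc22a6l were those of the muscle glycogen phosphorylase pygma (1.06 ± 0.21 with Pb and 0.69 in controls), the autophagy protein atg9a, and trim25. The interval of the difference included 0 for each of the 14.

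**Figure D5:**
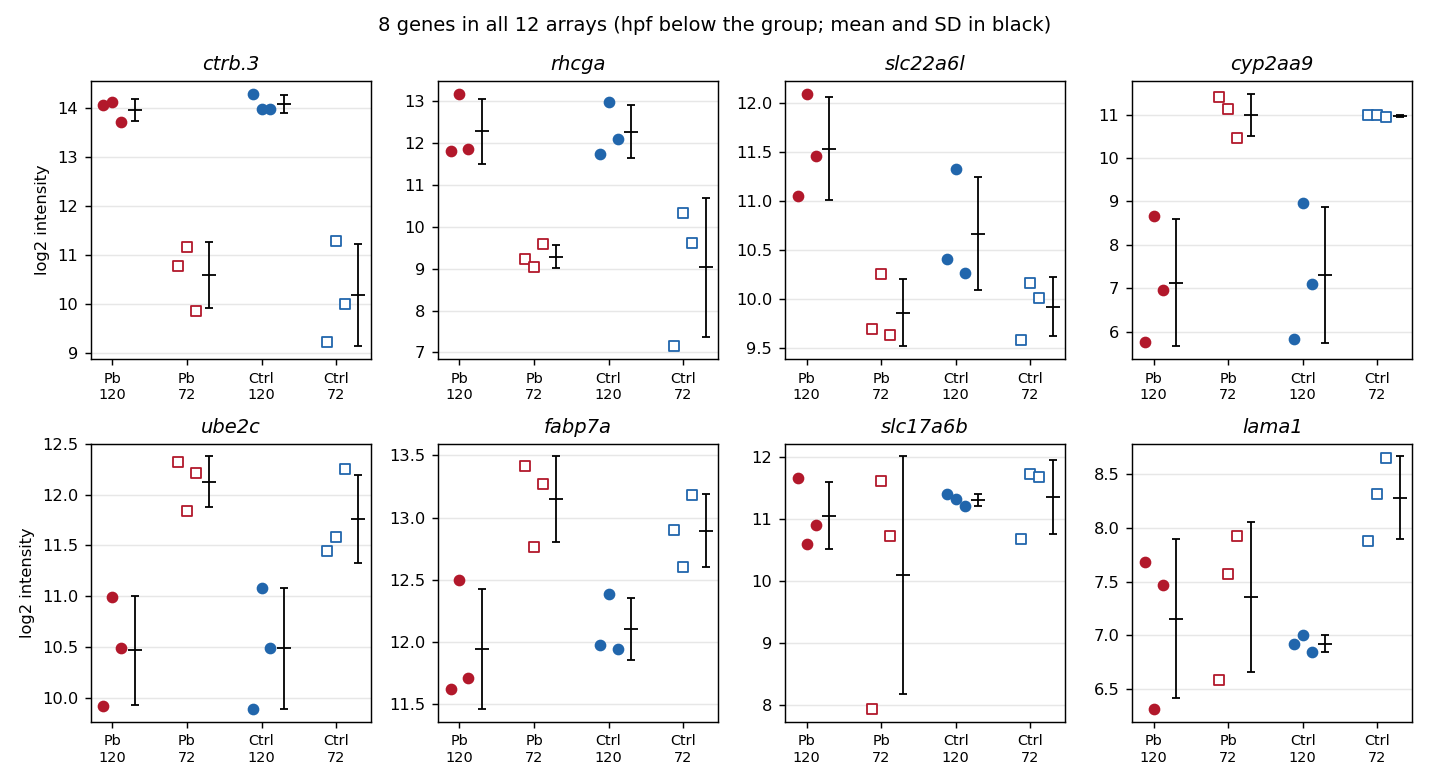
Log2 intensity (vertical axes) of 8 genes in all 12 arrays, with circles for 120 hpf, squares for 72 hpf, Pb in red, controls in blue, and the mean and SD of each group (n = 3) in black. The stages are apart in both Pb and control animals for ctrb.3, rhcga, slc22a6l, cyp2aa9, ube2c, and fabp7a, while Pb pools overlap between stages for slc17a6b and lama1.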

How the data were processed

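RNA of pooled whole zebrafish was measured on 12 one-color NimbleGen arrays, 3 for each of 4 groups. The authors deposited linear intensity values for 385000 probes after quantile normalization, and their methods and the submitters' processing notes name RMA (version not given in the sources used here). The sorted values showed that the normalization held within each pair of a Pb and a control array and not across pairs, and no summary per target or background step was evident. All 12 value columns were used.

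Starting from log2 intensity, quantile normalization was repeated across all 12 arrays, and a target's value was the mean of its probes. limma 3.58.1 in R 4.3.3 (lmFit, eBayes) was fitted to 4 group means, with contrasts of 120 minus 72 hpf with Pb, the same in controls, and their difference, two-sided, Benjamini-Hochberg over 37157 targets, threshold 0.05. The script was tested on simulated data. p-Values rest on a spread between pools that the fit estimates per target over all 4 groups together, so the SE of a target is the same with Pb and in controls. The median SD was 0.30 in Pb_120hpf and 0.38 in Pb_72hpf, above the 0.22 and 0.21 of the controls. The p-values with Pb therefore do not measure the spread of the Pb pools alone, and 3 arrays per group limit how precise they are. No slide or scan label was given, and a batch shared by the arrays of a stage cannot be told apart from the stage. Gene symbols came from the platform annotation (2626 targets) and RefSeq accessions (37), and 34494 were left unnamed. In 13 cases 2 targets share a symbol and were kept apart.

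Named genes were the 15 largest rises and 15 largest falls among called named targets without overlap between stages, up to 5 members of each list with the largest change, the 10 with the smallest p for the difference, and 5 per direction called in controls only. Genes outside that rule (sc5d, apoda.1, angptl6, dr1, pygma, atg9a, and trim25) were chosen after their values were seen. The comparison, the lists, and the gene rule were chosen with earlier results of these data known, and some list patterns were corrected by gene name later. Lists are described by counts and medians with no set test. Gene families were not among the planned lists and were counted for the text by gene symbol. They are the cyp2aa and other cyp2 genes, globin chains, cholesterol synthesis enzymes, mitochondrial and cytosolic ribosomal proteins, and proteasome subunits. Alternatives covered the replicate block, the arrays fitted, normalization, probe summary, filters, variance model, array weights, the methods' t-test, and leaving out arrays. For the difference, the t-test was one pooled over the 4 groups. Replicate numbers were not used to pair the stages, and the deviations of same-numbered Pb arrays of both stages correlated at -0.308, -0.455, and 0.551. Within a stage, same-numbered Pb and control arrays correlated at 0.548, 0.434, and 0.268 at 120 hpf and 0.452, 0.402, and -0.069 at 72 hpf. The main fit did not model these pairs.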

Additional observations from a re-analysis of the deposited data

How the results depend on the processing

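With Pb, the count of 1101 targets became 364 (329 higher and 35 lower) when only the 6 Pb arrays were fitted, 366 (273 and 93) on the values as deposited, 3481 (2065 and 1416) by the methods' t-test at the study's own p and log2 ratio criteria, and 24 by that t-test after Benjamini-Hochberg. In controls, 1765 became 3542 with only the 6 control arrays, 499 as deposited, 1082 after median centering, 13841 with array weights (where Control_120hpf replicate 3 had a weight of 13.0), 3342 without Pb_72hpf replicate 1 and Pb_120hpf replicate 2, an alternative chosen after seeing the data, 5811 by the t-test criteria, and 596 by the t-test after adjustment. The difference was 0 targets in each alternative except a t-test pooled over the 4 groups at the same p and log2 ratio criteria. That test, which the study did not use, gave 189 (56 higher and 133 lower). The size ratio of 0.838 was 0.713 with array weights. The cause of each of these shifts was not tested. Leaving out single arrays gave 580 (without Pb_120hpf replicate 1) to 1363 calls with Pb, with 62 to 427 falls, 747 (without Control_72hpf replicate 1) to 2302 in controls, where leaving out Control_72hpf replicates 2 and 3 and Control_120hpf replicates 1 and 3 gave 921, 969, 884, and 770, 0 for the difference, and a ratio of 0.786 to 0.889. With Pb the falls moved by over 1.5 times without Pb_120hpf replicates 1, 2, and 3 (62, 427, and 114), without Pb_72hpf replicate 2 (156), and without Control_72hpf replicates 2 and 3 and Control_120hpf replicate 3 (179, 180, and 160).

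With the replicate number as a block, 1204 targets were called with Pb, 1963 in controls, and 0 for the difference, and with pairs of a time point as a random block 1175, 1746, and 0. With that random block 334 targets had an unadjusted limma p under 0.05 for the difference, against 75 in the main fit. The numbers of the 2 stages are not stated to be linked, and the correlations of 2 of the 3 same-numbered Pb arrays were below 0.

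Of the 104 named targets called with Pb, 47 that the text names were followed through the alternatives, most of them picked for large changes. Of these 47, 20 kept their call in every alternative fitted per gene, 10 lost it in at most 3, and 17 in more than 3. The other called targets, among them sc5d, apoda.1, angptl6, dr1, pygma, atg9a, and trim25, were not followed. Directions turned for eef1a1b over probes within 500 nt of the last probe (-0.59), slc17a6b without Pb_72hpf replicate 1 (-0.12, the lowest of a range up to 1.72), lama1 without Pb_72hpf replicate 3 (0.08) and without Pb_120hpf replicate 2 (0.22), fbxo7 with median polish (0.085), without Pb_72hpf replicate 1 (0.06, the highest of a range down to -0.25), and without both arrays that stood apart (0.11), and the uncalled target of plod2 without Pb_72hpf replicate 1 (0.13, the highest of a range down to -0.35) and without both arrays (0.01). Without both arrays the list medians with Pb were -0.90 for cholesterol and fatty acid metabolism, 0.33 for kidney tubule and ion transport, 0.09 for solute carriers, 0.21 for lens, -0.35 for globins and heme, and -0.04 for axon guidance and cell adhesion, each over 1.5 times from its value with all arrays. Only 7.17% of targets have a symbol, so counts over lists cover the named fraction, and no signal of background probes was used to mark dim targets.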

Other observations

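Most called targets carry no gene symbol. The largest rise with Pb among those without a symbol was that of the target ZV700S00005098, at 14.30, 14.25, and 14.01 log2 units in Pb larvae at 120 hpf, against 8.57, 9.55, and 8.87 in Pb embryos at 72 hpf, a log2 fold change of 5.19 with Pb and 6.15 in controls. OTTDART00000028330 rose by 4.95 with Pb and 5.60 in controls. The largest falls among targets without a symbol were those of ENSDART00000021648 (-4.82 with Pb and -4.55 in controls) and ENSDART00000104269 (-3.45 with Pb).

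The called targets changed their place in the range of signals. The median percentile of the rises among all targets was 75.8 in Pb larvae at 120 hpf and 45.6 in Pb embryos at 72 hpf, and that of the falls was 46.4 in Pb larvae at 120 hpf and 70.299 in Pb embryos at 72 hpf. The last probe lay a median of 1042 nt into the target for the rises and 1084 nt for the falls, against 901 nt for all targets.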
